A study of Mus musculus with 4 samples.

Results

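The 40 genes described here encode the regulators and proteases of apoptosis: 19 members of the BCL2 family, 3 factors that act after the mitochondrion opens, 4 inhibitor of apoptosis proteins (IAPs), 6 caspases, 6 proteins of the death receptor complex, and the p53 family members Trp53 and Trp63. They were taken as a fixed list of symbols, and 40 of 40 were found among the 22073 gene identifiers of the table. Poly(A) RNA was sequenced from the right testis of 4 adult male mice of KM, an outbred stock. The protocol describes RNA, while the molecule field of the labels reads genomic DNA. The values were read as RNA of 4 separate mice, with a mouse for each library. In 2 mice (hemicastrated) the left testis had been taken out before puberty. The 2 control mice (sham) had only a sham operation at that time, so all 4 mice had been operated on. The source label of the control mice reads normal mouse and names no operation. Age is given only as before puberty for the operation and as body maturity for the sampling, and the protocol text counts 3 mice per group where 2 libraries per group were analysed here.

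In the mitochondrial route of apoptosis, BH3-only proteins sense damage or loss of growth signals and engage the protective BCL2 proteins, which frees BAX and BAK1 to open the outer mitochondrial membrane. Released cytochrome c then assembles with APAF1 into the apoptosome, which activates caspase 9, while SMAC (encoded by Diablo) and HTRA2 bind the IAPs that hold caspases in check. In the other route, ligands such as FASL bind death receptors, which recruit FADD and caspase 8. Germ cells die in large numbers in the normal testis, above all in the first wave of spermatogenesis around puberty, and the balance of these proteins is known to set how many survive.

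None of the 26 apoptosis genes that could be tested passed the test between hemicastrated and control testes. Values are FPKM (fragments scaled by transcript length and by the number of mapped fragments), so they can be compared between genes. Genes that averaged 1 FPKM or more were tested with limma on log2(FPKM + 1), and a gene was called at a Benjamini-Hochberg adjusted p under 0.05. Of the 40 apoptosis genes, 26 reached that mean and 14 did not. The test called 0 of the 26, against 1.3% of all 11343 tested genes (135 lower and 12 higher), and the smallest adjusted p among the 26 was 0.396 (limma). At an unadjusted p under 0.05 the count was 1 of 26, against 10.5% of all tested genes. The log2 fold change, hemicastrated minus control, was positive in 8 and negative in 18 of the 26, with a median of -0.036 beside -0.026 over all tested genes. The median size of the change was 0.079 beside 0.116 over all tested genes. Since the testis is a mixture of cell types, fewer cells of a type and less RNA per cell cannot be told apart in any of these values.

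The 95% intervals show which differences these 4 libraries could still hide. On the log2(FPKM + 1) scale the interval stayed within a 2-fold change in either direction for 26 of 26 genes and within a 1.5-fold change for 20 of 26. The pseudocount of 1 narrows the intervals of genes near 1 FPKM and shrinks their fold changes, so the log2 fold changes given here understate the change of low genes. With a pseudocount of 0.1, 23 of 26 stayed within 2-fold, the exceptions being Xiap, Casp8 and Cflar. Among the 12 that averaged 5 FPKM or more, 11 stayed within 1.5-fold with the pseudocount of 1.

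**Figure D1:**
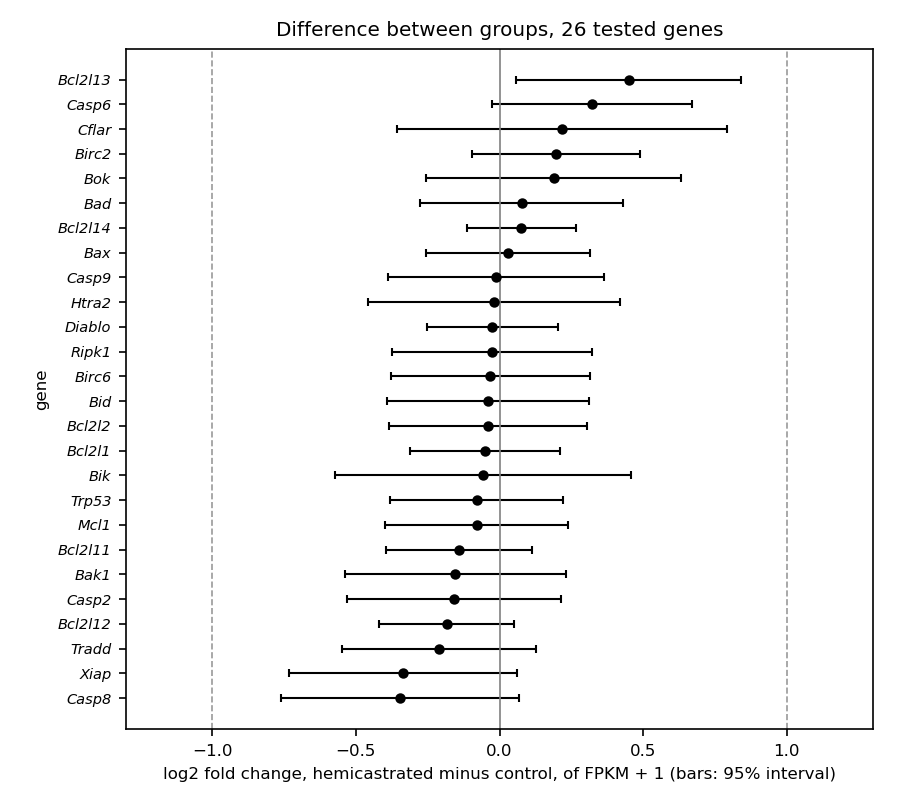
Log2 fold change of FPKM + 1, hemicastrated minus control (x axis), for the 26 tested apoptosis genes (y axis, ordered by the change); bars are 95% intervals from limma and dashed lines mark a 2-fold change. The interval of Bcl2l13 alone lies wholly on one side of 0, from 0.06 to 0.84, and no bar reaches a 2-fold change.

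As levels, the 40 genes spanned 0.0294 to 186 FPKM by their mean over the 4 libraries, and a pair of them stood far above the rest. Diablo (ENSMUSG00000029433, chromosome 5, 123509765 to 123524176, GRCm38), whose product SMAC releases caspases from the IAPs, measured 193 and 182 FPKM in sham testes, then 196 and 173 after hemicastration. It ranked 309 among all 22073 genes. Bcl2l14 (ENSMUSG00000030200, chromosome 6, 134396318 to 134438736), a BCL2 relative also known as BCL-G and known for high expression in testis, measured 138 and 143 FPKM in sham testes versus 151 and 146, which ranked it 428. Every Diablo library lay above every Bcl2l14 library, and every Bcl2l14 library lay above those of the next gene, Bcl2l11. Together, Diablo and Bcl2l14 made up 62.3% and 62.9% of the summed FPKM of the 40 genes in sham testes and 63.7% and 63.0% after hemicastration. The plot of levels by library shows the order of the others. Of the 39 neighbouring pairs in that order, 29 overlapped between libraries, so the rank of most genes relative to the next is not fixed by these data. By mean, 8 of 40 genes were at 10 FPKM or more and 24 of 40 were in the upper part of the ranking of all genes, above its midpoint.

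**Figure D2:**
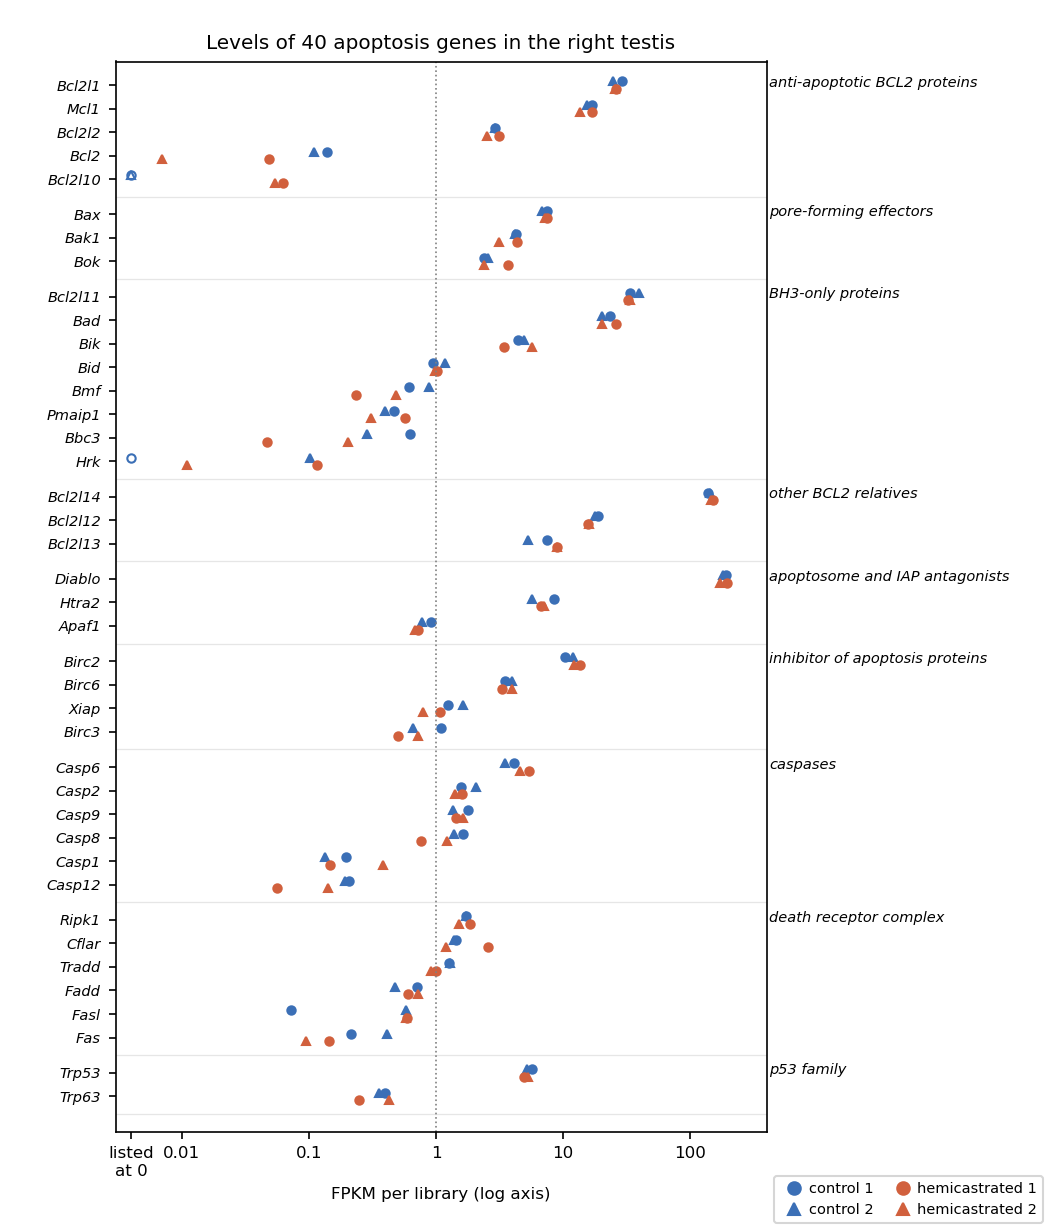
FPKM in each library (x axis, log scale) of the 40 apoptosis genes (y axis), by role; circles and triangles are replicates 1 and 2, blue is control and orange hemicastrated, open symbols are values listed at 0, and the dotted line marks 1 FPKM. Diablo and Bcl2l14 lie above 100 FPKM in all 4 libraries, and the colours lie close together for most genes above 1 FPKM.

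The promoters of the leading pair are shown because these 2 genes, so close in level, differ in sequence. Each run holds 250 bases before and 50 after the start in RefSeq (GRCm38.p6), on the strand of the gene, with CpG dinucleotides in capitals. The promoter of Bcl2, whose mean was 0.0758 FPKM, is given as a CpG-rich promoter of a gene near the bottom of the ranking. Positions are chr6:134396079-134396378 (plus strand) for Bcl2l14, chr5:123524115-123524414 (minus strand) for Diablo and chr1:106714241-106714540 (minus strand) for Bcl2.
Bcl2l14: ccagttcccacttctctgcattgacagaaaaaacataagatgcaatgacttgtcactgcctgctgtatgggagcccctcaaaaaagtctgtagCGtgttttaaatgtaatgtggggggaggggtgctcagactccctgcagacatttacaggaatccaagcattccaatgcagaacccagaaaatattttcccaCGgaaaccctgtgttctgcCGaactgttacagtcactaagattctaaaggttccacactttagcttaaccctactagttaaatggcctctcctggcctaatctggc
Diablo: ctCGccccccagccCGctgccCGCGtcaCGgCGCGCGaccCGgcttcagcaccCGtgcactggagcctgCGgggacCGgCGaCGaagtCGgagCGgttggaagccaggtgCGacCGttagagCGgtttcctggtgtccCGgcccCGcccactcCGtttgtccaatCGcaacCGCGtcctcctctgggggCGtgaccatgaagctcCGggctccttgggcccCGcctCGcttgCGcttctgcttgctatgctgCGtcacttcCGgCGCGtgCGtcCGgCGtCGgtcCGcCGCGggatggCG
Bcl2: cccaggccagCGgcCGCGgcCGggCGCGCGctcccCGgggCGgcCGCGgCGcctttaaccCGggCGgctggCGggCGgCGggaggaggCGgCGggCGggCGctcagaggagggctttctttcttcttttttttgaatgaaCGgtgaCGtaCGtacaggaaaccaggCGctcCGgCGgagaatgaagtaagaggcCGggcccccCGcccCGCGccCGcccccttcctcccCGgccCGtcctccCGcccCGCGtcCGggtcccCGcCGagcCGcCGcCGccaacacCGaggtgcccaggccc
The Bcl2l14 promoter holds 3 CpG, an observed to expected ratio of 0.194, and the other start of this gene in the table has a ratio of 0.366. The Diablo promoter holds 42 CpG, a ratio of 1.10, and the Bcl2 promoter 44, a ratio of 1.02. Of the 34 apoptosis genes with a promoter in the table, 21 (61.8%) had a ratio of at least 0.6, against 35.8% of all 32851 promoters and 70.5% of the 8946 tested genes with one (first listed start). The 34 include 11 genes under 1 FPKM, a range that the tested genes leave out, so 61.8% and 70.5% are not shares of like sets. Nor is 35.8% a like share, because it counts every listed promoter, of which a gene can have several, and the 34 count 1 per gene. The start used in testis is not known. For the apoptosis genes the start nearest the gene start in GENCODE was taken, and the first listed start gave the same share of 61.8%. Of the 9 genes with several starts, 2 had starts on both sides of 0.6, Bcl2l1 (0.056 to 1.072) and Xiap (0.198 to 0.706). At a mean of at least 5 FPKM, 9 of 11 genes were at or above 0.6, and the exceptions were Bcl2l14 and Trp53. From 1 to under 5 FPKM, 7 of 12 were, and under 1 FPKM, 5 of 11. The shares of all genes in these ranges were not computed, so these counts show nothing particular to the apoptosis genes. The full cyclic AMP response element TGACGTCA, searched on both strands (it reads the same on each), was present in 1 of the 34 promoters, that of Birc2, and in 1.79% of all promoters. The nearest listed start lay over 1000 bases from the gene start in GENCODE for 5 of the 34 (Hrk, Bbc3, Bcl2l12, Xiap and Casp8). No methylation was analysed here, so these are features of sequence alone.

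**Figure D3:**
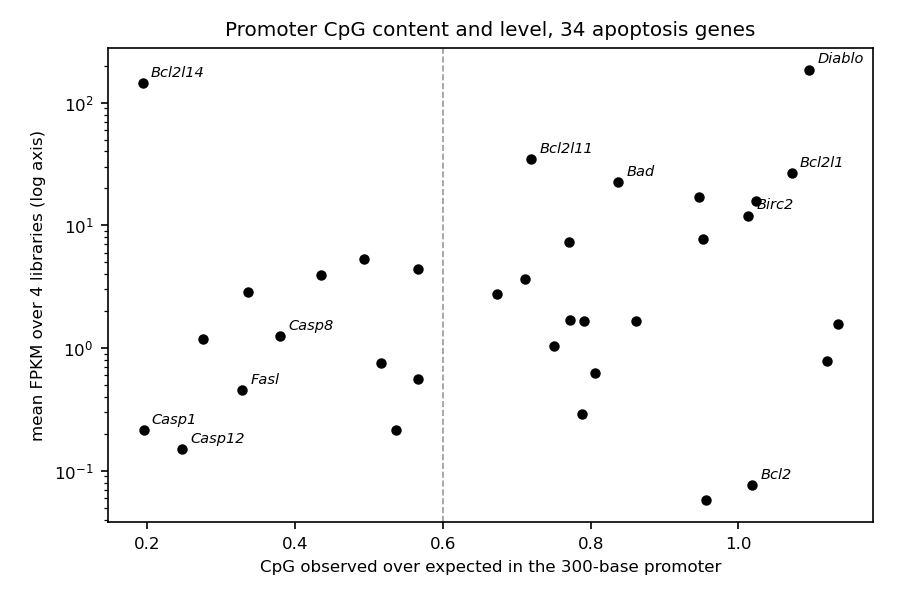
Mean FPKM over the 4 libraries (y axis, log scale) against the CpG observed to expected ratio of the 300-base promoter (x axis) for 34 apoptosis genes, with 0.6 dashed. Bcl2l14, at a ratio of 0.194, stands alone at the upper left, and Bcl2, at 1.02, lies at the lower right.

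Among the protective BCL2 proteins, which bind and hold the killers of the family, Bcl2l1 (BCL-X) led. It measured 29.1 and 25.0 FPKM in sham testes, then 26.2 and 25.8 after hemicastration. Mcl1, a short-lived protector, was at 16.9 and 15.4 versus 16.9 and 13.7 FPKM, and Bcl2l2 (BCL-W), which mice need for adult spermatogenesis, at 2.93 and 2.92 versus 3.13 and 2.53. The libraries of the groups overlapped for all 3, and the log2 fold changes lay between -0.08 and -0.04. Bcl2l2 shares 13.3% of its exon bases with Gm20521 on the same strand, which was at 0.803 to 1.44 FPKM. Bcl2 itself, the founder of the family, was lowly expressed at 0.139 and 0.109 versus 0.0483 and 0.00697 FPKM, and Bcl2l10 was listed at 0 in both controls and was at 0.0630 and 0.0545 after hemicastration.

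The 3 pore-forming effectors summed to 14.2 and 13.6 FPKM in sham testes versus 15.5 and 12.7, below the 49.1 and 43.4 versus 46.3 and 42.1 of the 5 protectors, of which Bcl2l1 and Mcl1 alone exceeded Bax. Bax measured 7.54 and 6.82 FPKM in sham testes versus 7.53 and 7.16, with a log2 fold change of 0.03 (95% interval -0.26 to 0.32). Bak1 was at 4.23 and 4.21 versus 4.31 and 3.14 FPKM, and Bok, a relative that can form pores without BAX and BAK1, at 2.41 and 2.57 versus 3.66 and 2.39. For Bok the high value was hemicastrated 1 alone, and without that library its log2 fold change was -0.04 in place of 0.19. The value of Bak1 is uncertain, because 25.5% of its exon bases are shared with the antisense gene Ggnbp1, which was at 242 to 316 FPKM, and the libraries are not described as stranded. Bax shares 12.2% of its exon bases with Gm45808 on the same strand. The ratio of Bax to Bcl2l1 within a library, computed after the values were seen, was 0.259 and 0.273 in sham testes and 0.287 and 0.278 after hemicastration. These groups do not overlap, by a gap smaller than the difference between the controls, and the two-sided exact permutation p was 0.33, the smallest that 2 libraries against 2 can give. The sum of the 3 effectors over the sum of the 5 protectors was 0.289 and 0.314 versus 0.335 and 0.302, which overlapped.

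The BH3-only proteins, the sensors of the family, were led by Bcl2l11 (BIM). It measured 33.8 and 39.3 FPKM in sham testes, then 32.4 and 33.6 after hemicastration. Both hemicastrated libraries were below both controls, with a log2 fold change of -0.14 (SE 0.11, limma adjusted p = 0.708) that was -0.04 without control 2. Bad, which is held inactive by phosphorylation downstream of growth factors, was at 23.5 and 20.3 versus 26.2 and 20.4 FPKM. Bik was at 4.45 and 4.92 versus 3.42 and 5.74, so that both hemicastrated libraries lay outside the controls, on opposite sides. Bid, which links caspase 8 to the mitochondrion, was close to the limit at 0.953 and 1.17 versus 1.03 and 0.983. Bad shares 20.5% of its exon bases with the antisense gene Gpr137, which was at 53.9 to 60.9 FPKM, and Bid shares 17.7% with Bcl2l13, so both values are uncertain in the same way as that of Bak1. Bcl2l11 alone took 52.5% and 58.3% of the summed FPKM of the 8 BH3-only genes in sham testes and 50.6% and 54.4% after hemicastration. The other 4 were under 1 FPKM in every library. Of these, the p53 targets Pmaip1 (NOXA) and Bbc3 (PUMA) were at 0.469 and 0.396 versus 0.566 and 0.306 FPKM, and at 0.623 and 0.285 versus 0.0468 and 0.204. Bmf was at 0.612 and 0.882 versus 0.234 and 0.488 FPKM, and Hrk was between 0 and 0.116.

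Of the remaining BCL2 relatives, Bcl2l13 had the largest log2 fold change of the 26 genes. Its product, BCL-RAMBO, sits on the outer mitochondrial membrane and takes part in removal of mitochondria. It measured 7.48 and 5.34 FPKM in sham testes, then 8.99 and 9.03 after hemicastration, 6.41 ± 1.52 versus 9.01 ± 0.02 (SD, n = 2 each). The 2 hemicastrated libraries were nearly equal and above both controls, which differed more from each other. The log2 fold change of 0.45 (SE 0.16, limma adjusted p = 0.396) did not pass the threshold, and it was 0.66 without control 1 and 0.24 without control 2. Bcl2l13 shares 6.91% of its exon bases with Bid on the other strand. Bcl2l12 was at 18.7 and 17.8 versus 15.8 and 16.1 FPKM, lower in both hemicastrated libraries with a log2 fold change of -0.18 (limma adjusted p = 0.593). It shares 33.4% of its exon bases with other genes, among them Irf3 on the other strand, which was at 13.5 and 13.4 versus 9.41 and 11.1 FPKM. Bcl2l14, at the levels given above, was higher in both hemicastrated libraries by a small step (log2 fold change 0.08, 95% interval -0.11 to 0.26), and 14.1% of its exon bases are shared with the antisense gene 4933406J09Rik. It made up 47.3% and 49.3% of the summed FPKM of the 19 BCL2 family genes in sham testes and 50.1% and 50.8% after hemicastration. The exact permutation p was 0.33 (two-sided), the smallest that 2 libraries against 2 can give.

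After the mitochondrion, the level of Diablo contrasted with that of Apaf1, the scaffold of the apoptosome. Apaf1 measured 0.921 and 0.777 FPKM in sham testes, then 0.728 and 0.689 after hemicastration, under the limit for a test. The log2 fold change of Diablo was -0.03 (95% interval -0.25 to 0.20), with overlapping libraries. A share of 40.9% of its exon bases lies in other genes, and Gm48255 is a near-identical copy, so its level may include or miss reads of these. Htra2, a mitochondrial protease that also binds IAPs, was at 8.53 and 5.74 versus 6.71 and 7.11 FPKM, and it shares 43.7% of its exon bases with Aup1, which was at 64.9 to 76.5 FPKM, and Loxl3, both on the other strand. Among the 4 IAPs of the fixed list, Birc2 (cIAP1) was the highest at 10.3 and 11.9 versus 13.6 and 12.2 FPKM. It was higher in both hemicastrated libraries (log2 fold change 0.20, limma adjusted p = 0.65). That change was 0.10 without control 1 and 0.12 without hemicastrated 1. Birc5, an IAP outside that list, was above Birc2 in every library, at 32.1 and 33.9 versus 36.0 and 36.7 FPKM. Birc5 was named after its values were seen. Birc6, a giant ubiquitin ligase, was at 3.49 and 3.98 versus 3.31 and 3.97. Xiap, the direct inhibitor of caspases, was at 1.25 and 1.63 versus 1.08 and 0.789 FPKM. Both hemicastrated libraries of Xiap were below the controls (log2 fold change -0.33, SE 0.16, limma adjusted p = 0.556). That change was -0.58 with a pseudocount of 0.1 and -0.20 under quantile normalization. Birc3 (cIAP2) was at 1.10 and 0.662 versus 0.506 and 0.725. The level of Diablo was 11.9 and 10.02 times the sum of the 4 listed IAPs in sham testes and 10.6 and 9.77 times after hemicastration, which overlapped. That sum leaves out Birc5, which was itself above the sum in every library, so the ratio does not hold for all IAPs.

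The caspases were low. Casp6, an executioner, was the highest of the 6 at 4.09 and 3.50 FPKM in sham testes, then 5.42 and 4.57 after hemicastration. Both hemicastrated libraries were above both controls, and the log2 fold change of 0.32 (SE 0.14, limma adjusted p = 0.509) did not pass. Casp8, the initiator of the death receptor route, was at 1.64 and 1.40 versus 0.763 and 1.22 FPKM. It was lower in both hemicastrated libraries, with a log2 fold change of -0.35 (SE 0.17, limma adjusted p = 0.559) that was -0.18 without hemicastrated 1, -0.60 with a pseudocount of 0.1 and -0.23 under quantile normalization. The initiator of the mitochondrial route, Casp9, was at 1.79 and 1.35 versus 1.44 and 1.64, and Casp2 at 1.57 and 2.05 versus 1.60 and 1.42, both with overlapping libraries. The inflammatory caspase gene Casp1 was at 0.195 and 0.134 versus 0.146 and 0.384 FPKM, and Casp12 at 0.207 and 0.191 versus 0.0564 and 0.141. Casp6 took 43.1% and 40.6% of the summed FPKM of these 6 genes in sham testes and 57.5% and 48.7% after hemicastration. The exact permutation p was 0.33 (two-sided), which any 2 libraries against 2 without overlap give, so it cannot decide.

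The death receptor genes lay around or under 1 FPKM. The receptor gene Fas measured 0.213 and 0.412 FPKM in sham testes, then 0.145 and 0.0943 after hemicastration. Its ligand gene Fasl was at 0.0722 and 0.576 versus 0.593 and 0.580, where control 1 alone was low. The adaptors Fadd and Tradd were at 0.707 and 0.479 versus 0.598 and 0.718, and at 1.26 and 1.28 versus 1.003 and 0.921. Tradd was thus lower in both hemicastrated libraries (log2 fold change -0.21, limma adjusted p = 0.67), a change of -0.37 with a pseudocount of 0.1 and -0.09 under quantile normalization. Ripk1, a kinase that decides between survival and death signals, was at 1.73 and 1.71 versus 1.84 and 1.51 FPKM. It shares 9.01% of its exon bases with other genes, among them the antisense Serpinb6a at 73.4 to 86.8 FPKM. Cflar (c-FLIP), the inhibitor of caspase 8, was at 1.43 and 1.39 in sham testes, then 2.56 and 1.20 after hemicastration. Its log2 fold change of 0.22 rested on hemicastrated 1 and was -0.13 without that library. The pseudogene Gm9845 is a near-identical copy of Cflar. Trp53, which encodes the damage sensor p53, was at 5.69 and 5.21 versus 4.90 and 5.31 FPKM with overlapping libraries, and it has the copy Trp53-ps. Trp63, a family member of basal epithelium and oocytes, was at 0.401 and 0.354 versus 0.249 and 0.425.

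Seen as a set, the apoptosis genes separated the groups about as often as other genes did. Among the 26 tested genes, both hemicastrated libraries were below both controls in 5 (19.2%: Bcl2l11, Bcl2l12, Xiap, Casp8 and Tradd), against 24.8% of all tested genes. They were above both controls in 4 (15.4%: Bcl2l13, Bcl2l14, Birc2 and Casp6), against 16.3%. Among the 14 genes under 1 FPKM, 6 were lower without overlap (42.9%: Bcl2, Bmf, Bbc3, Apaf1, Casp12 and Fas), against 24.1% of the 7244 genes of that range, and 2 were higher (Bcl2l10 and Fasl), against 12.3%. The 14 were left out of the main test. In the fit with no filter on low values, 0 apoptosis genes were called (smallest adjusted p 0.439, limma). Of the 14, only Bcl2 had an unadjusted p under 0.05 in that fit.

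**Figure D4:**
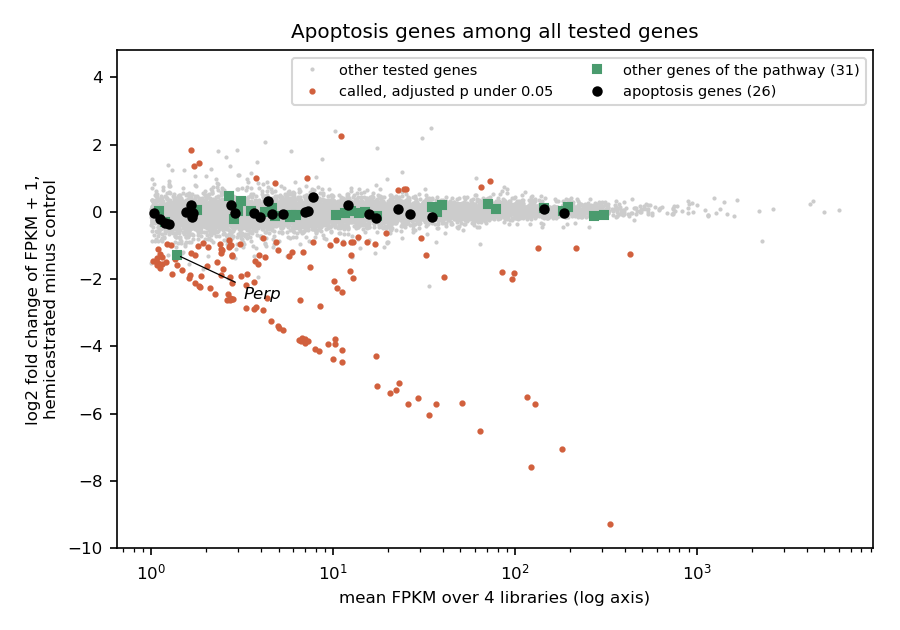
Log2 fold change of FPKM + 1, hemicastrated minus control (y axis), against mean FPKM over the 4 libraries (x axis, log scale); grey points are tested genes, orange points called genes, black circles the 26 tested apoptosis genes and green squares 31 other genes of the pathway. The black circles lie between -0.35 and 0.45, and Perp is the only green square among the called genes.

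Of 42 further genes of the pathway, 31 were tested, 1 fell and 0 rose, against 1.19% lower and 0.106% higher over all tested genes. The one that fell was Perp (ENSMUSG00000019851, chromosome 10, 18845020 to 18857073), a p53 target that is also a desmosome protein of epithelia. It measured 1.93 and 2.82 FPKM in sham testes, then 0.302 and 0.459 after hemicastration, a log2 fold change of -1.28 (SE 0.18, limma adjusted p = 0.0306) that was -2.36 with a pseudocount of 0.1. Both hemicastrated libraries were far below both controls. The call was lost without control 1 (adjusted p = 0.0623, limma), control 2 (0.166) or hemicastrated 1 (0.0701), with no filter on low values (0.113) and under quantile normalization (0.0969), and the direction held throughout. The other 30 had adjusted p-values of 0.496 and above in limma. The genes below were chosen after their values were seen, for their place in the pathway. Cytochrome c, the partner of APAF1, has a testis form: Cyct measured 61.7 and 68.4 FPKM versus 72.5 and 80.0, while the somatic Cycs, which has near-identical copies, was at 0.637 and 0.893 versus 0.450 and 0.486. Mdm2, the ligase that degrades p53, was at 36.5 and 37.4 versus 34.0 and 40.1 FPKM, and the p53 target Cdkn1a at 3.31 and 3.64 versus 3.66 and 3.53.

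Markers of duct epithelium and of smooth muscle differed between the groups. Of 10 genes of epididymal duct epithelium, 7 were tested and 6 fell, and their summed level was 1325 and 1864 FPKM in sham testes versus 6.30 and 8.82 after hemicastration. Lcn5 and Lcn8, markers of that epithelium, were listed at 0 in all 4 libraries. Of 7 smooth muscle and peritubular genes, 5 fell, with sums of 316 and 290 versus 214 and 237 FPKM. Most of each sum was Actg2, which was not called (219 and 213 versus 184 and 209 FPKM), while Acta2, which fell, was at 53.02 and 40.2 versus 19.4 and 17.1 and Tagln, which fell, at 22.4 and 16.9 versus 5.37 and 4.76. Of 4 duct basal cell genes, 1 was tested and was not called. Their sums were 4.05 and 3.43 versus 2.03 and 2.85 FPKM, and the keratins Krt5 and Krt14 were at 0.193 to 0.297 in sham testes and listed at 0 in both hemicastrated libraries. The 8 markers of T, NK and B cells summed to 1.45 and 0.564 versus 0.335 and 0.920 FPKM, and the 6 macrophage genes to 26.05 and 23.0 versus 25.8 and 19.9. The 5 endothelial genes summed to 8.96 and 5.94 versus 7.35 and 6.71 FPKM and the 4 erythroid genes to 39.6 and 35.5 versus 36.2 and 25.2, and no gene of these 4 lists was called. No marker of spermatids, spermatocytes, spermatogonia, Sertoli or Leydig cells was called. Spermatid markers summed to 9653 and 10715 versus 11183 and 11634 FPKM, and spermatocyte markers to 260.2 and 267.3 versus 341.3 and 298. Sertoli markers summed to 445 and 466.7 versus 556.2 and 518.5, and Leydig markers to 1624 and 1525 versus 1896 and 1793. Each of these sums was higher in both hemicastrated libraries, though not every gene was. Most of the Leydig sum was Insl3 (1272 and 1232 versus 1609 and 1484 FPKM). Star also had a positive log2 fold change, and Cyp17a1, Cyp11a1, Hsd3b1 and Hsd3b6 negative ones. Cst9 (62.81 and 76.75 versus 110.5 and 111.5) and Cst12 (56.34 and 74.45 versus 107.2 and 109.2) held most of the Sertoli rise. Clu and Gata1 of Sertoli cells and Piwil1 and Spo11 of spermatocytes had negative changes, the other tested ones positive. Spermatogonium markers overlapped, at 24.47 and 20.98 versus 21.78 and 20.93. The Leydig median log2 fold change was -0.070. Closest to a call was Cst9 of Sertoli cells (log2 fold change 0.669, limma adjusted p = 0.06007). The part of any of these cell types in the values of Perp, Bcl2, Bmf, Bbc3, Apaf1, Casp12 and Fas was not tested. Summed FPKM per library ranged from 343105 to 353135. Read depth is not known, but the steps between the lowest values put control 1 at 1.2 times the depth of control 2, and hemicastrated 1 at 0.876 times that of hemicastrated 2.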

How the data were processed

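Poly(A) RNA was selected, fragmented and reverse transcribed with random primers, with no step that marks the strand, per the labels' protocols. The authors deposited an FPKM for each gene in each library, per the file headers. Tools listed without roles in the submitters' processing notes are Cufflinks 2.2.1 and TopHat2 2.0.11, with build GRCm38. The gene models behind these values are not given in the sources used here. GENCODE M21 (GRCm38) named 21806 of the 22073 identifiers.

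The 11343 genes averaging 1 FPKM or more were fitted on log2(FPKM + 1) in R 4.3.3 with limma 3.58.1, with a variance trend, no covariate, two-sided p-values and Benjamini-Hochberg adjustment over all 11343. FPKM gives no read counts, so no counting interval was computed. With 2 mice per group the spread is shared between genes. On simulated data for this comparison (11343 genes), 74.9% of 2-fold and 98.7% of 4-fold changes were called, and 5.74% of the calls were unchanged genes. The changes were set on the log2(FPKM + 1) scale, with the spread drawn from the fitted model. Near 1 FPKM a 2-fold change in FPKM is smaller on that scale, so these shares do not hold for low genes. Exon overlap came from GENCODE M21. Near-identical copies were transcripts matching over at least 300 bases at 95% identity (blastn 2.17.0). An exact 0 can be a failed estimate and is written as listed at 0.

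The 40 genes, the other lists and the tests were chosen with earlier results of these data known. All 40 were to be named. Of the pathway list, called genes were to be named. Alternatives were a pseudocount of 0.1, no filter, quantile normalization, TPM, the replicate number as a block, and leaving out each library, always on the same 11343 genes except with no filter (18587 genes). Single values of some genes of the pathway list are not reported here.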

Additional observations from a re-analysis of the deposited data

How the results depend on the processing

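The count of apoptosis genes called was 0 in all 9 alternatives in limma, in which the smallest adjusted p of any of them was 0.28. The direction held for 11 of the 26 tested genes in all of them and turned in at least 1 for 15, whose log2 fold changes did not exceed 0.22 in size with all 4 libraries. Quantile normalization moved the median of all tested genes from -0.026 to 0.017 and that of the apoptosis genes from -0.036 to 0.037, called 0 genes of the pathway list, and turned Bcl2l2 (0.059), Bid (0.106), Bik (0.004), Htra2 (0.024), Birc6 (0.050), Casp9 (0.088) and Ripk1 (0.070). Leaving out 1 library at a time, the log2 fold change ranged from -0.157 to 0.056 for Bcl2l1, -0.154 to 0.072 for Bcl2l2, -0.223 to 0.064 for Mcl1, -0.035 to 0.094 for Bax, -0.333 to 0.026 for Bak1, -0.042 to 0.418 for Bok, -0.117 to 0.037 for Bid, -0.096 to 0.252 for Bad, -0.363 to 0.248 for Bik, -0.118 to 0.067 for Diablo, -0.270 to 0.231 for Htra2, -0.136 to 0.071 for Birc6, -0.136 to 0.113 for Casp9, -0.116 to 0.064 for Ripk1 and -0.130 to 0.562 for Cflar. Over the same settings the median of the apoptosis genes ranged from -0.079 (without hemicastrated 1) to 0.001, the lower genes over all tested from 78 (without control 2) to 156, the higher ones from 0 (without control 2; 4 without control 1) to 26 (without hemicastrated 2; 24 without hemicastrated 1), and the calls of the pathway list from 0 to 1. With no filter 3 genes were higher and 0 of the pathway list were called. Whether the replicate numbers pair the mice is not known. The correlation of deviations between same-numbered libraries was 0.014, which with 2 libraries per group cannot exclude a pairing. With the replicate block 30 genes were higher and 167 lower, and no call among the apoptosis genes or the pathway list changed. In each of these cases the cause was not tested. Without 1 library, the lone library of its group is assumed to vary like the others. Precision is limited by 2 mice per group, and genes near or under 1 FPKM rest on few fragments.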
